A study of Mus musculus with 8 samples.

Results

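Retinoic acid is a small signal made from vitamin A, and 10 genes of its synthesis, binding, response and breakdown were followed in the tongue bud of mouse embryos: Rdh10, Dhrs3, Aldh1a1, Aldh1a2, Aldh1a3, Crabp1, Crabp2, Rarb, Cyp26a1 and Cyp26b1. The array measured each of the 10 with at least 1 probe set naming that gene alone, in all 13 probe sets of the 45037 that are not Affymetrix controls. The genes were chosen by their roles, with the log2 changes between these same mutant and control arrays already known, so that their changes describe these arrays and are no independent evidence for a change of the pathway. Tongue buds were taken at embryonic day 13.5 from C57BL/6J mice. The 4 control buds were Alk5 fl/fl and the 4 mutant buds carried Wnt1-Cre in addition to Alk5 fl/fl, so both groups hold the floxed allele of Alk5, the type I TGF-beta receptor encoded by Tgfbr1. Wnt1-Cre acts in neural crest cells, which form the connective tissue of the tongue and other cell types as well. The muscle precursors and the surface epithelium keep an intact receptor gene. No group had Wnt1-Cre without the floxed allele, so what the transgene does and what loss of the receptor does cannot be told apart.

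As background, retinol is oxidised to retinal by Rdh10, and Dhrs3 reduces retinal back to retinol. The retinal dehydrogenases Aldh1a1, Aldh1a2 and Aldh1a3 complete the synthesis of retinoic acid, each in its own set of tissues. Crabp1 and Crabp2 carry it within the cell, receptors such as the product of Rarb switch genes on or off when it binds, and Cyp26a1 and Cyp26b1 degrade it, which keeps retinoic acid to defined territories of the embryo. Rarb and Cyp26a1 are themselves classical targets that retinoic acid induces. In the head, excess and lack of retinoic acid both disturb structures made by the neural crest.

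Series-wide checks bear on all values. Array medians lay between 5.96 and 6.01 on the log2 scale, and any pair of arrays correlated at 0.9898 to 0.9976 across probe sets, which are not independent replicates. All 3 Tgfbr1 probe sets were called higher on the mutant arrays, the brightest with a log2 change of 0.39 (adjusted p = 0.008) and the others with 0.82 (adjusted p = 0.0116) and 0.52 (adjusted p = 0.0414). Their probes are not placed relative to the floxed part here, so that they check neither the deletion nor the labels. The mean of 3 Y-linked genes was 3.09 on control 3 and 8.44 to 8.73 on the other arrays, and embryo sex was not determined per the labels. By these values control 3 reads as a female bud and all other buds as male, so the groups differ in sex make-up. Separate litters are not stated for the numbered buds, so p-values measure the spread between these samples. Markers of the cell types expected in a tongue bud lay above the array medians on average: the list means were 8.28 to 8.61 for 10 neural crest mesenchyme genes, 9.21 to 10.08 for 10 myogenic genes and 10.03 to 10.58 for 10 oral epithelium genes over the 8 arrays. RNA came from whole buds, where fewer cells of a type and less RNA per cell cannot be told apart.

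The comparison of mutant with control buds asked, for retinoid genes, which steps of the pathway differed. In mutants the synthesis genes moved in opposite directions, with Aldh1a2 2.52-fold higher and Aldh1a3 3.13-fold lower on its brightest probe set. The receptor gene Rarb was 2.90-fold higher, whereas the breakdown gene Cyp26a1 was 1.92-fold lower. At an adjusted p of 0.05 in limma over all 45037 probe sets, 5 of the 13 probe sets fell under that threshold (are called here), 2 higher and 3 lower, beside 4.43% of all probe sets (2.01% higher and 2.42% lower). The groups did not overlap in 8 of the 13, beside 12.8% of all probe sets. Over the 13 the median log2 change was 0.25, against -0.004 over all probe sets. Since the genes were chosen with this contrast known, nothing is read from these shares. The number called was 3 without control 4 and 3 without mutant 2, and 4 or 5 without any other single array.

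**Figure D1:**
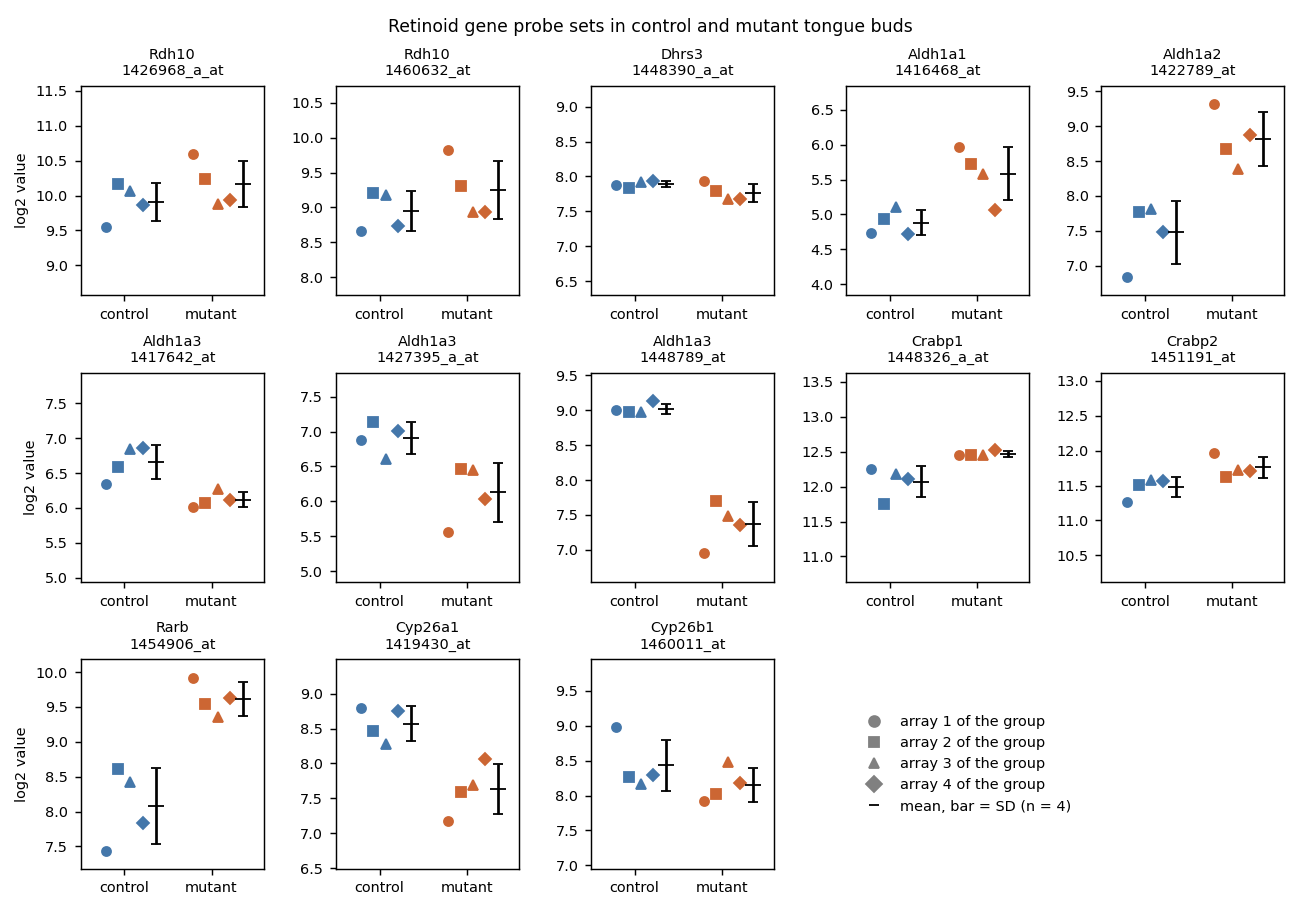
Log2 value (vertical axis, 3 log2 units in every panel) of each of the 13 probe sets on the 4 control (blue) and 4 mutant (orange) arrays; the marker shape gives the array number and the black bar the mean with its SD (n = 4). The groups are apart for Aldh1a2, Rarb, Cyp26a1, Crabp1, Crabp2 and all 3 probe sets of Aldh1a3. They overlap for Rdh10, Dhrs3, Cyp26b1 and Aldh1a1.

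**Figure D2:**
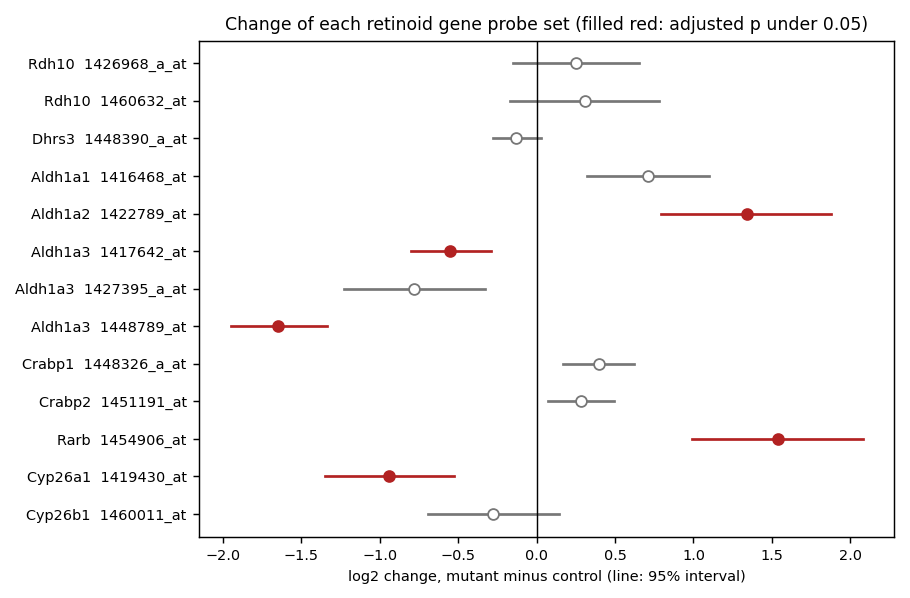
Log2 change from control to mutant of each probe set (horizontal axis) with its 95% interval; filled red points have an adjusted p under 0.05. Rarb at 1.54 and Aldh1a2 at 1.34 lie farthest to the right, and Aldh1a3 probe set 1448789_at at -1.65 farthest to the left.

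For the first step, from retinol to retinal, no probe set was called. Rdh10, the main retinol dehydrogenase of the embryo, gave 9.55, 10.17, 10.07 and 9.87 in controls 1 to 4, against 10.60, 10.24, 9.88 and 9.93 in mutants 1 to 4 with its brighter probe set, 1426968_a_at. The groups overlapped, with mutant 1 highest and control 1 lowest of the 8 arrays. Its log2 change was 0.25 (SE 0.178, adjusted p = 0.542), with a 95% interval of -0.15 to 0.65. The second probe set, 1460632_at, gave 0.31 (95% interval -0.17 to 0.78), and the changes of the 2 sets differed by -0.06 (exact two-sided permutation p = 0.514). Without control 1 and mutant 1, a choice made after seeing the data, the change of 1426968_a_at was -0.018. Dhrs3, the retinal reductase that retinoic acid itself induces, read 7.84 to 7.93 in controls and 7.67 to 7.93 in mutants. Its change was -0.13 (SE 0.0691, adjusted p = 0.39), and its interval of -0.28 to 0.03 holds no change of 2-fold in either direction.

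Of the 3 retinal dehydrogenases, Aldh1a2 rose, Aldh1a3 fell and Aldh1a1 was not called. Aldh1a2, the main retinoic acid-producing enzyme of early embryonic mesoderm, gave 6.84, 7.77, 7.81 and 7.49 in controls 1 to 4, against 9.32, 8.68, 8.39 and 8.87 in mutants 1 to 4. Every mutant array lay above every control array, although controls spanned 0.96 and mutants 0.93 log2 units. Control and mutant means of 7.48 ± 0.45 and 8.82 ± 0.39 (SD, n = 4 each) left a mutant minus control difference of 1.34 log2 units (SE 0.242, 95% interval 0.79 to 1.88, adjusted p = 0.0159). Control 1 was the lowest array by a wide margin, and without it the change was still called. The change was called in 17 of 21 alternatives. Among the others were the fits without mutant 4 (1.32, adjusted p = 0.051), with controls 1 and 3 left out (1.18, adjusted p = 0.0523) and a linear model without variance moderation (adjusted p = 0.0844).

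Aldh1a3, a retinal dehydrogenase known from epithelia of the eye and nose, fell on the probe set with the highest signal, 1448789_at. It gave 9.0, 8.97, 8.98 and 9.13 in controls 1 to 4, against 6.95, 7.70, 7.49 and 7.35 in mutants 1 to 4. The controls lay within 0.16 log2 units of each other, and all mutants lay below them. Control and mutant means of 9.02 ± 0.07 and 7.37 ± 0.32 (SD, n = 4 each) left a mutant minus control difference of -1.65 log2 units (SE 0.137, adjusted p = 0.000424). This call held in all 21 alternatives, at adjusted p-values of 0.000171 to 0.0149. The dimmer sets were lower as well, without overlap between groups: 1417642_at changed by -0.55 (adjusted p = 0.0299) and 1427395_a_at by -0.78, which was not called (adjusted p = 0.062). The call of 1417642_at was lost in 6 of the 8 fits without 1 array (without control 2, control 3, control 4, mutant 1, mutant 2 or mutant 4), and over the 8 fits the change ran from -0.65 to -0.48.

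The probe sets of Aldh1a3 gave changes of different size, which did not pass the threshold after adjustment. On each array the difference between 1448789_at and 1417642_at was 2.14 to 2.65 in controls and 0.93 to 1.64 in mutants, so the change of the brightest set was larger by 1.10 log2 units. Against 1427395_a_at it was larger by 0.86, with 1.83 to 2.38 in controls and 1.04 to 1.39 in mutants. Neither pair of ranges overlapped, and both reached the smallest exact two-sided permutation p that 4 arrays against 4 allow, 0.0286, which became 0.0571 after Benjamini-Hochberg adjustment over the 4 within-gene pairs compared here. With the other pairs above that floor, 0.0571 was the lowest adjusted value these could reach, so the adjusted test cannot decide whether the sizes differ. With the 3 probe sets averaged, the change was -0.99 and was called (adjusted p = 0.00141).

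Aldh1a1, the remaining retinal dehydrogenase, gave 4.74, 4.94, 5.10 and 4.72 in controls 1 to 4, against 5.97, 5.72, 5.58 and 5.07 in mutants 1 to 4. Mutant 4 lay just below control 3, and the other mutants lay above all controls. The log2 change was 0.71 (SE 0.175, 95% interval 0.32 to 1.10, adjusted p = 0.0562). It was called without mutant 4 (0.88, adjusted p = 0.0116) and in 7 of 20 alternatives in all. Its highest value, 5.97 on mutant 1, was about at the array medians and the others lay below them, so this is a dim probe set.

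Neither carrier gene was called, although the groups did not overlap in either. Crabp1, a binding protein abundant in neural crest mesenchyme, gave 12.25, 11.75, 12.18 and 12.11 in controls 1 to 4, against 12.45, 12.45, 12.46 and 12.52 in mutants 1 to 4. The mutant arrays lay together above the controls, with SDs of 0.04 and 0.22. The log2 change was 0.40 (95% interval 0.17 to 0.62, adjusted p = 0.0622), and it was called without control 1 (0.46, adjusted p = 0.0493), without control 2 (0.29, adjusted p = 0.0479) and in 7 of 20 alternatives in all. Crabp2, which hands retinoic acid to its nuclear receptors, read 11.27 to 11.58 in controls and 11.63 to 11.97 in mutants. Its change of 0.28 (95% interval 0.07 to 0.49, adjusted p = 0.147) was called in none of 21 alternatives.

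Rarb encodes the retinoic acid receptor beta, and its promoter carries one of the best known retinoic acid response elements. It gave 7.44, 8.61, 8.43 and 7.83 in controls 1 to 4, against 9.92, 9.54, 9.36 and 9.63 in mutants 1 to 4. The lowest mutant stood above the highest control, and the spread was wider among controls. Control and mutant means of 8.08 ± 0.54 and 9.61 ± 0.24 (SD, n = 4 each) left a mutant minus control difference of 1.54 log2 units (SE 0.242, 95% interval 0.99 to 2.08, adjusted p = 0.0082). The change was called in all 8 fits without 1 array, where it ran from 1.32 to 1.71. It was the largest rise of the 13 probe sets. It was called in 19 of 21 alternatives, and the model without variance moderation was among those where it was not (adjusted p = 0.0605). With 1 probe set on the array, the transcripts that start at the different promoters of Rarb cannot be told apart.

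Among the retinoid genes, Rarb and Cyp26a1 share the letters of a retinoic acid response element next to a start site and moved in opposite directions, so the sequences are shown. RefSeq windows of 300 bases (GRCm38.p6), from 250 before a start to 50 from it, were given for 7 of the 10 genes. A DR5 element was searched on both strands as 2 half-sites of 6 bases in the same orientation with 5 bases between them, each half-site being AGGTCA or AGTTCA or GGGTCA or GGTTCA. It was found in Rarb and Cyp26a1 and in none of the windows of Dhrs3, Aldh1a1, Aldh1a2, Crabp1 and Cyp26b1. Of 32851 windows of all genes, 32 held it, or 0.0974%. The same half-sites with 1 base (DR1) or 2 bases (DR2) between them were found in no window of the retinoid genes, beside 0.222% and 0.268% of all windows. Such a match is a description of the letters in the window and shows no binding. The gene strand is given from 5′ to 3′ with the half-sites in capitals, at chr14:16575506-16575535 (minus strand) and chr19:37697770-37697799 (plus strand).
Rarb: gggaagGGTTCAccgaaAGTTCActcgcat
Cyp26a1: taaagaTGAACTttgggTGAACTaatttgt

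Positions count from the start on which each window was built. RefSeq spans Rarb over chr14:16430839-17082331 and Cyp26a1 over chr19:37697738-37701536, so both elements lie inside the annotated genes. In Rarb the element lay at positions -53 to -37 from that start and ran with the gene. In Cyp26a1 it lay at positions -32 to -16 on the opposite strand, where it reads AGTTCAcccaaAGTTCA. The 100 bases before this Rarb start (chr14:16575477-16575576, minus strand) are shown for the setting of the element, again with the DR5 half-sites in capitals.
Rarb: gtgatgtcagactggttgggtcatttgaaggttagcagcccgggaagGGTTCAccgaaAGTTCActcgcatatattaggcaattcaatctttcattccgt

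Cyp26a1 and Cyp26b1 encode cytochrome P450 enzymes that clear retinoic acid. Cyp26a1 gave 8.80, 8.47, 8.28 and 8.75 in controls 1 to 4, against 7.18, 7.59, 7.69 and 8.07 in mutants 1 to 4. All mutants lay below all controls, mutant 4 by the smallest distance. Control and mutant means of 8.57 ± 0.25 and 7.63 ± 0.36 (SD, n = 4 each) left a mutant minus control difference of -0.94 log2 units (SE 0.182, 95% interval -1.35 to -0.53, adjusted p = 0.0206). Leaving out 1 array ended the call in 5 of 8 cases. These were control 1 (-0.87, adjusted p = 0.0533), control 2 (-0.98, 0.0508), control 4 (-0.88, 0.0614), mutant 2 (-0.93, 0.0642) and mutant 3 (-0.96, 0.0551). It also ended with controls 1 and 3 left out (-0.98, 0.0776) and in the model without variance moderation (adjusted p = 0.0946). In all, the change was called in 12 of 21 alternatives, and its direction held in all 21. Cyp26b1 gave 8.98, 8.26, 8.17 and 8.30 in controls 1 to 4, against 7.92, 8.02, 8.48 and 8.18 in mutants 1 to 4. Its groups overlapped, and the change of -0.28 (95% interval -0.69 to 0.14, adjusted p = 0.506) was not called. Without control 1 the change was -0.093.

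Markers of cell types, with and without a neural crest origin, were read on the same arrays, each gene by its brightest probe set. Of all genes measured this way 2.63% were called higher and 4.12% lower. The mean of 10 oral epithelium genes ran from 10.35 to 10.58 in controls and read 10.03, 10.21, 10.32 and 10.56 on mutants 1 to 4, a difference of -0.21 (exact permutation p = 0.171), and 1 of the 10, Krt18, was called lower. Among the mutants, Cyp26a1 and this mean were lowest on mutant 1 and highest on mutant 4. Among the controls both were lowest on control 3, but Cyp26a1 was highest on control 1 and the mean on control 4. Aldh1a3 (brightest probe set) and Cyp26b1 were also lowest on mutant 1, but highest on mutant 2 and mutant 3. The mean of 8 endothelial genes was higher by 0.31 (exact permutation p = 0.0286, the smallest possible), with 2 of 8 called higher, and ran from 7.83 to 7.94 in controls and 8.05 to 8.36 in mutants. Neuronal markers, with 2 of 7 called higher and 4 lower, had a mean of 7.19 to 7.44 in controls and 6.88 to 7.04 in mutants. Macrophage and leukocyte markers had 3 of 8 called lower (means 7.48 to 7.60 in controls and 7.06 to 7.40 in mutants). Of the myogenic markers 5 of 10 were called lower, and of the Schwann cell and glial markers 3 of 5 (means 8.04 to 8.37 in controls and 7.67 to 8.0 in mutants). The means of these last 4 lists also differed at an exact permutation p of 0.0286 each. Neural crest mesenchyme markers, with 1 of 10 called higher, differed by 0.08 in their mean (exact permutation p = 0.343), and of 5 erythroid markers 0 were called by limma and 1 had an unadjusted p under 0.05. The part of these differences in the retinoid values was not tested.

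Within each group the retinoid genes also differed from array to array. Control 1 was the lowest control for Rdh10, Aldh1a2, Crabp2 and Rarb and the highest for Cyp26a1, Cyp26b1 and Crabp1. Mutant 1 was the highest mutant for Rdh10, Dhrs3, Aldh1a1, Aldh1a2, Crabp2 and Rarb, and the lowest for Aldh1a3, Crabp1, Cyp26a1 and Cyp26b1. Mutant 1 was thus an extreme of its group in 10 of the 10 genes on their brightest probe sets, and control 1 in 7 of 10. For Crabp1 this rests on little, since mutants 1 and 2 both read 12.45 and the mutants spanned 0.08 log2 units. Over all probe sets, mutant 1 was an extreme in 55.7% and control 1 in 55.8%. Since the genes were chosen with this contrast known, nothing is read from these shares. Aldh1a2, Rarb and Rdh10 took the same lowest control (control 1), the same second lowest control (control 4) and the same highest mutant (mutant 1). Their orders differed elsewhere. The highest control was control 3 for Aldh1a2 and control 2 for Rarb and Rdh10. Mutant 4 lay above mutant 2 for Aldh1a2 and Rarb and below it for Rdh10. Both Cyp26 genes were lowest on control 3 among controls and on mutant 1 among mutants. These are descriptions of 4 arrays a group, in which a correlation cannot be tested. With control 1 and mutant 1 left out together, the changes were 0.95 for Aldh1a2, 1.22 for Rarb and -0.72 for Cyp26a1, and the last of these was not called (adjusted p = 0.0622).

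**Figure D3:**
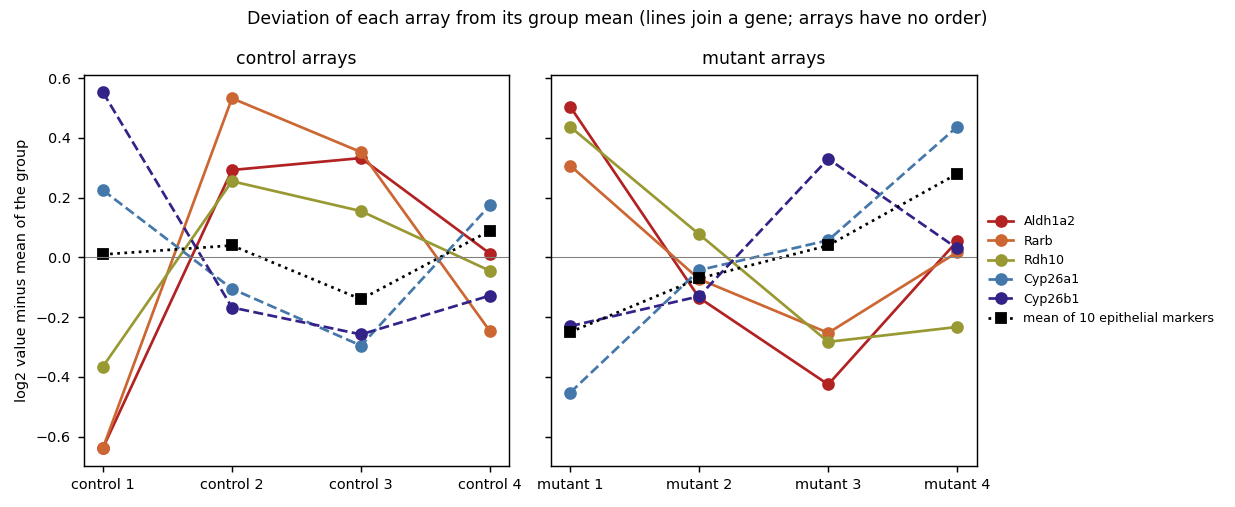
Log2 value of each array minus the mean of its group (vertical axis) for Aldh1a2, Rarb and Rdh10 (solid lines), Cyp26a1 and Cyp26b1 (dashed) and the mean of 10 oral epithelium markers (dotted), in controls (left) and mutants (right); the lines join a gene and the arrays have no order. The solid and dashed genes lie on opposite sides of 0 on control 1 and on mutant 1.

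The other genes of the pathway were counted from a list by role, each by its brightest probe set. Of 57 listed genes 49 were measured by a probe set naming the gene alone. Of these, 4 were called higher and 2 lower in mutants, beside 2.63% higher and 4.12% lower (6.75% in all) of 18193 genes measured the same way. The 6 calls became 3 without control 2, control 4, mutant 2 or mutant 4. The median log2 change of the 49 was 0.07, against -0.011 for all genes. Because the list was made with earlier results of these data known, nothing is read from these shares. By limma 0 were called of 10 genes of vitamin A uptake, transport and storage and of 12 of the retinol and retinal dehydrogenases. The same held for 9 genes listed as cofactors of the receptors, among them the lipid carrier Fabp5 and the nuclear receptor Ppard. In these lists, in turn, 3, 2 and 4 genes had an unadjusted p under 0.05. Over all probe sets, 15.6% had an unadjusted limma p under 0.0406 and 17.6% one under 0.0524. Stra6, the membrane receptor that takes up retinol, changed by 0.30 (adjusted p = 0.126). Rbp4, the retinol carrier of the blood, changed by -0.43 (adjusted p = 0.119), with 5.57 to 6.14 in controls and 5.36 to 5.64 in mutants.

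**Figure D4:**
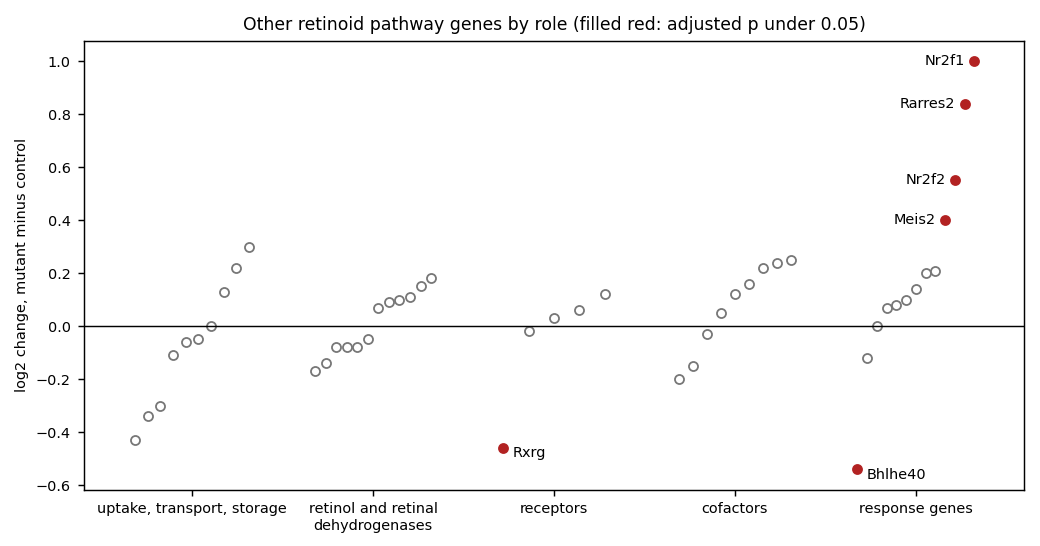
Log2 change from control to mutant (vertical axis) of 49 further retinoid pathway genes, grouped by role along the horizontal axis and sorted within each role; filled red points have an adjusted p under 0.05. The called genes are Rxrg among the receptors and Nr2f1, Nr2f2, Rarres2, Meis2 and Bhlhe40 among the response genes.

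Of the 5 other receptor genes 1 was called. Rxrg, a retinoid X receptor found in skeletal muscle among other tissues, gave 8.78, 8.82, 8.80 and 9.0 in controls 1 to 4, against 8.36, 8.52, 8.26 and 8.44 in mutants 1 to 4. It fell without overlap by 0.46 on the log2 scale (SE 0.0749, adjusted p = 0.00989), and the call held in all 21 alternatives. On the same arrays the mean of the 10 myogenic markers was 9.82 to 10.08 in controls and 9.21 to 9.47 in mutants, and their part in the Rxrg value was not tested. The remaining receptors were not called: Rara changed by 0.06 (95% interval -0.11 to 0.23), Rarg by 0.12 (-0.03 to 0.26), Rxra by -0.02 (-0.14 to 0.10) and Rxrb by 0.03 (-0.08 to 0.15). Each of these 4 intervals holds only changes well under that of Rarb.

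Among 13 measured genes known to respond to retinoic acid in various embryonic tissues, 4 were called higher and 1 lower, beside 2.63% higher and 4.12% lower of all genes. These genes were listed with earlier results of these data known, so nothing is read from the shares. Nr2f1 encodes an orphan nuclear receptor of the COUP-TF family, which can compete with retinoid receptors for DNA. It gave 11.06, 10.85, 11.02 and 10.89 in controls 1 to 4, against 12.06, 12.16, 11.76 and 11.83 in mutants 1 to 4. The groups did not overlap, and the change was 1.00 (SE 0.0976, adjusted p = 0.000976). Its relative Nr2f2 read 10.86 to 11.24 in controls and 11.48 to 11.66 in mutants, a change of 0.55 (SE 0.0861, adjusted p = 0.00774). Of the 6 Nr2f2 probe sets 4 were called, all higher, and the dim sets 1431237_at and 1444229_at were not. Both Nr2f1 and Nr2f2 were called in all 21 alternatives.

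The other response genes were called less firmly. Rarres2, which encodes the chemoattractant chemerin, gave 6.93, 7.36, 7.55 and 6.92 in controls 1 to 4, against 8.35, 8.18, 7.63 and 7.94 in mutants 1 to 4 (log2 change 0.84, adjusted p = 0.036). Its call was lost in 6 of the 8 fits without 1 array, all but those without control 3 or mutant 3. The mean over its 3 probe sets changed by 0.54 (adjusted p = 0.0638). That mean holds the dim set 1425091_at, with 3.73 in controls and 3.66 in mutants. Its set 1428538_s_at changed by 0.86 without overlap between groups and was not called (adjusted p = 0.0797). Meis2, a homeobox gene of the TALE class, was higher by 0.40 (adjusted p = 0.0374), with 2 of its 4 probe sets called, and lost the call in 7 of the 8 such fits, all but that without control 3. Bhlhe40, a transcriptional repressor, was lower by -0.54 (adjusted p = 0.038) and lost the call in 7 of 8, all but that without mutant 1. Stra8, Hoxb1, Gbx2, Cdx1, Meis1, Tbx1, Tgm2 and Rarres1 were not called, with changes of -0.12 for Tgm2 to 0.21 for Meis1. All values of Stra8, Hoxb1, Gbx2, Cdx1 and Rarres1 lay below the array medians, so a missing change of these dim probe sets says little. The groups of Cdx1 did not overlap (log2 change 0.20, limma adjusted p = 0.0722).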

How the data were processed

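RNA of 8 tongue buds was hybridised to one-colour Affymetrix arrays. The authors deposited 1 log2 value for each probe set and array, made with RMA per the submitters' processing notes, which give no version or settings here. RMA aligns the arrays, so a shift shared by most genes is removed. The platform annotation supplied gene names: 34945 of 45101 named 1 gene, 932 several, 9160 none and 64 were controls. Gene identifiers of 34741 matched RefSeq (GRCm38.p6), with 0 symbols changed.

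Differences of mutant from control arrays were tested two-sided over 45037 probe sets in R 4.3.3, using lmFit and eBayes of limma 3.58.1, with Benjamini-Hochberg adjustment and a threshold of 0.05. SE is the moderated standard error with 9.3 degrees of freedom in all. No dim probe set was removed. Named were every probe set of the 10 genes, pathway genes that were called, the receptors, Rbp4 and Stra6. The rule also held Cyp26c1, which is not analysed here. The members and lists were chosen with earlier results of these data known. On simulated data for 45037 probe sets, 57 of 100 changes of 0.5 and 93 of 100 changes of 1 were recovered, with 7 false calls. The simulated noise was independent between probe sets and arrays and no other probe set was changed, so these rates need not hold for the real arrays.

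Alternatives covered normalization, dim probe sets, the choice of probe sets, variance moderation, array weights, the replicate number and arrays left out.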

Additional observations from a re-analysis of the deposited data

Results flagged for a closer look

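Among 50 groups of 4 arrays checked for the probe sets described, 2 held an array far from the others, and chance alone flags about 1 group in 20. Cyp26b1 read 8.98 on control 1, with the nearest control at 8.30. Stra6 read 6.34 on mutant 3, with the nearest mutant at 6.03.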

How the results depend on the processing

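Of 508 values of named probe sets recomputed under 21 alternatives, 432 kept their direction and side of the threshold, 54 lost and 18 gained a call, and 4 changed sign, all small and uncalled: Rdh10 1426968_a_at (-0.018), Rara (-0.012) and Rxrb (-0.0026) without control 1 and mutant 1, a choice made after seeing the data, and Rara (-0.0019) without controls 1 and 3. Counts of calls over all probe sets, the 13 retinoid probe sets and the 49 other pathway genes were 1994, 5 and 6. They were 1229, 1 and 3 without variance moderation. With the replicate block they were 663, 2 and 3, and Rarb (adjusted p = 0.0641), Aldh1a2 (0.113) and Cyp26a1 (0.071) were not called; the numbers share no batch in the labels, same-numbered arrays correlated at -0.54 to -0.11 in their deviations, and 0 of 8 arrays correlated best with its own number. Without controls 1 and 3, 1154 probe sets were called, and 1320 without control 1 and mutant 1. Leaving out 1 array gave 1116 to 1592, 3 to 5 and 3 to 5. The number of arrays limits the precision.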

Other observations

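The DR5 letters searched above were found in windows of 31 genes, of which 11 were measured by a probe set naming the gene alone. Of these, 1 was called higher (Rarb) and 2 lower (Cyp26a1 and Prokr2), beside 2.63% higher and 4.12% lower of all genes. Their median log2 change was -0.09, against -0.011 for all genes. Prokr2, which encodes a receptor for prokineticins and was singled out after its values were seen, read 7.39 ± 0.38 in controls and 6.33 ± 0.21 in mutants (SD, n = 4 each; log2 change -1.06, limma adjusted p = 0.0112). The 8 others were not called, among them Syndig1 at 0.79 (adjusted p = 0.138) and the embryonic globin gene Hbb-y at -0.03. Rarb and Cyp26a1 stood in the list of retinoid genes before this search, and the search was made with their changes known.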
